A study of Mus musculus with 6 samples.

Results

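The proteasome genes of the mouse testis were compared between wt mice and mice that lack *Prss55*, a serine protease gene of the testis. They were taken as every gene on the array whose name begins with Psma, Psmb, Psmc, Psmd, Psme, Psmf or Psmg and a number. The rule matched 49 of the 27376 named genes on the array, through 79 probes, and 48 of them, with 74 probes, were bright enough to be tested. *Psmb11*, the catalytic subunit of the thymus, was the gene left out. One of the 48, *Psmc3ip*, matches by name only, since it encodes the meiotic recombination protein HOP2 and no part of the proteasome.

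Total RNA came from whole testes of male mice aged 6 to 8 weeks on a mixed 129Sv/C57BL/6 background, with 3 wt and 3 *Prss55*-/- mice (Prss55KO in the labels), 1 single-dye whole mouse genome array each. *Prss55*-/- mice carried a germline replacement made by homologous recombination in embryonic stem cells with a PGK-Neo cassette. No further treatment or allele is named for either genotype. The 3 *Prss55*-/- arrays shared 1 slide, wt replicates 1 and 2 another, and wt replicate 3 lay on one of its own, so slide and genotype cannot be told apart in any comparison here. Between 69.5% and 72.9% of spots lay well above background on each array, with 0 saturated, and precision is limited by how few arrays there are. The *Prss55* probe read 15.08, 14.95 and 14.93 on the log2 scale on the *Prss55*-/- arrays and 15.87, 15.77 and 16.01 on the wt arrays, a difference of -0.90 (SE 0.080, limma adjusted p = 0.010). Whether that probe lies inside the replaced part of the gene is not given in the sources used here. The paper reports no *Prss55* RNA in *Prss55*-/- testis by RT-PCR, and no PRSS55 protein by Western blot or immunofluorescence. What the remaining signal of this probe reads was not tested.

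The proteasome is the protease that degrades proteins marked with ubiquitin. Its 20S core is a barrel of outer alpha and inner beta rings, and the beta subunits PSMB5, PSMB6 and PSMB7 carry the cutting sites. In immune cells and after interferon these are exchanged for PSMB8, PSMB9 and PSMB10, which shape the peptides shown on MHC class I. Male germ cells exchange the alpha subunit PSMA7 for PSMA8 from meiosis onwards and also use the activator PA200. The 19S particle, with a ring of ATPases and a set of further subunits, sits on the end of the barrel, recognises ubiquitin and unfolds the substrate.

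The paired subunits replace each other in the same ring position, and their genes are related, so the likeness of their probes bears on how they are read. The probe for *Psmb5* lies at chr14:55233161-55233220 and the brighter one for *Psmb8* at chr17:34337771-34337830, in mm9, the build named in the array files. They are shown because they cover like stretches of related genes, with capitals where the bases match in the best ungapped alignment, 31 of 50 aligned positions:
Psmb5: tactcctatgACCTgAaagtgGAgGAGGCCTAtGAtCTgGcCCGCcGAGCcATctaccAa
Psmb8: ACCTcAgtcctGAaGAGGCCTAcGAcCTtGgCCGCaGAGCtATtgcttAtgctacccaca
The longest run of identical bases between this pair was 8 of the 60 bases of a probe. Over all probe combinations of the 4 variant and constitutive pairs it was 5 to 8 bases. The second *Psmb8* probe, listed at chr17:34337828-34338152, follows the first in the same transcript. The single probe for *Psmb9* lies at chr17:34319174-34319233, close to *Psmb8* in the MHC region.
Psmb8, second probe: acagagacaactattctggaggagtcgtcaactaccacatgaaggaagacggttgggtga
Psmb9: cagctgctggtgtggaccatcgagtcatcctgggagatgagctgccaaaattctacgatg

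Across the 48 genes the measured differences between *Prss55*-/- and wt testis were small. With limma on quantile-normalized log2 signals, 0 of the 48 genes passed an adjusted p of 0.05, against 1.21% of all 28617 tested probes. At an unadjusted limma p below 0.05 there were 4 genes, each through 1 of the 74 probes (5.41%), whereas 19.1% of all tested probes passed. Of these, *Psmb5* and *Psmd10* were higher in *Prss55*-/- testis (background 9.82%) and *Psmb8* and *Psmd11* lower (background 9.30%). None passed an unadjusted p below 0.05 together with 2-fold, which 0.612% of all probes did. The values of the genotypes did not overlap for 16 of the 74 probes, or 21.6%, against 26.3% of all tested probes.

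Taking the brightest tested probe for each gene, 26 of the 48 genes had a higher mean in *Prss55*-/- testis and 22 a lower one, with a median log2 difference of 0.005 beside 0.0019 over all tested probes. The median size of the difference, without its sign, was 0.052 for these genes by their brightest probe and 0.095 for all tested probes, dim ones included. For all 48 genes the 95% confidence interval of the difference, unadjusted for the number of genes, lay within 2-fold in either direction, and for 40 it lay within 0.3 on the log2 scale. The replicates were also close together. The spread within a genotype was below the median of all tested probes, an SD of 0.092, for 37 of the 48 genes. Both comparisons set the brightest probe of a gene beside probes of every brightness. They were not matched for signal, so they do not show that the family is quieter than other genes of like signal.

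**Figure D1:**
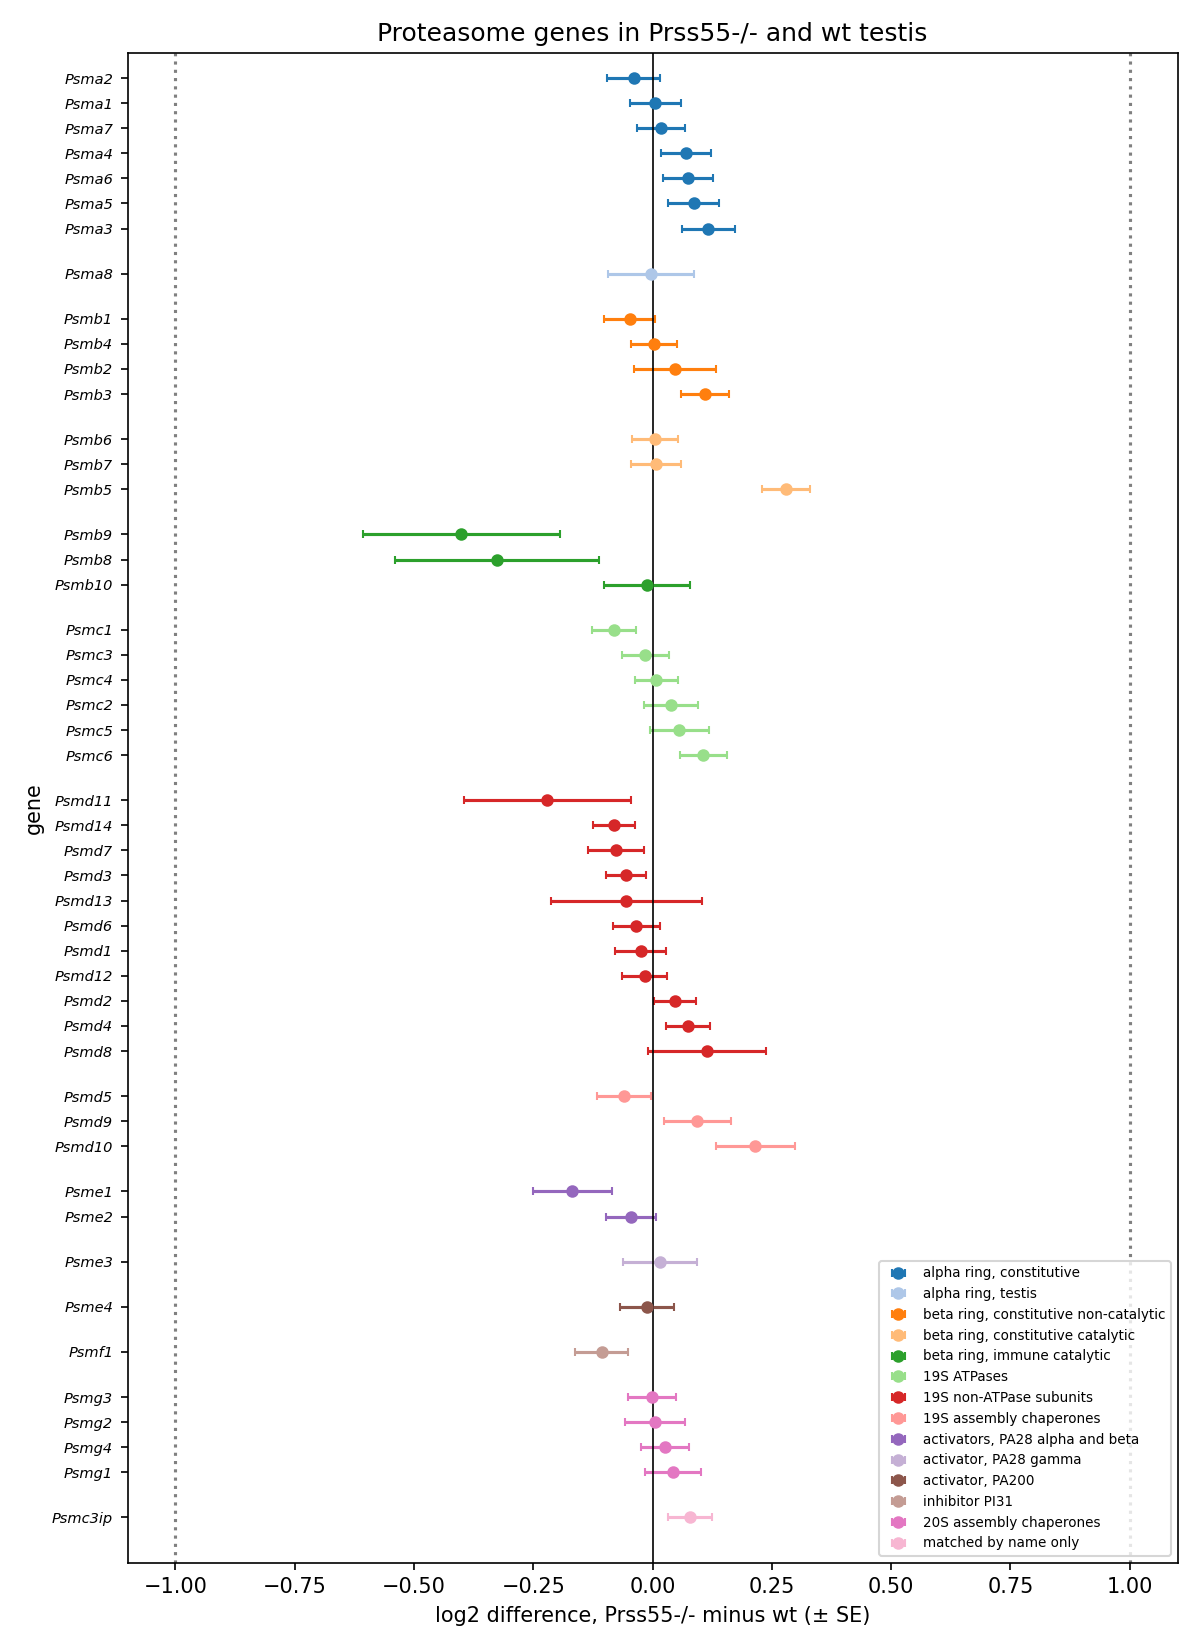
Log2 difference of each proteasome gene between Prss55-/- and wt testis (x axis, points with SE bars, n = 3 arrays per genotype), by its brightest tested probe and grouped by class. The dotted lines mark 2-fold, and the genes farthest from 0 are Psmb9 and Psmb8 on the lower side and Psmb5 on the higher side.

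The plot of differences by class shows how narrow the constitutive core was and how wide the immune subunits were. The 14 constitutive 20S subunits had a median within-genotype SD of 0.051, the 17 subunits of the 19S particle 0.042, and the 3 immune subunits 0.31. The classes were not matched for signal.

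The testis subunit *Psma8*, the alpha subunit that defines the proteasome of spermatocytes and spermatids, did not pass the test. Its probe read 15.26, 15.36 and 15.35 on the *Prss55*-/- arrays and 15.41, 15.43 and 15.14 on the wt arrays. The *Prss55*-/- values lie inside the wt range, whose lowest value was wt replicate 3. The difference was -0.004 (SE 0.090, limma adjusted p = 0.99), with a 95% interval from -0.22 to 0.22, so that a change of either sign within that interval is not resolved by 3 arrays per genotype. Its sign turned with other settings, to 0.020 with 75th percentile scaling and 0.072 with normexp background correction.

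*Psma7*, the ubiquitous subunit whose place PSMA8 takes, read 13.06, 13.07 and 12.97 in *Prss55*-/- testis and 13.03, 12.98 and 13.04 in wt testis, a difference of 0.017 (SE 0.050, limma adjusted p = 0.88). A second, dim *Psma7* probe on another transcript gave -0.12 (SE 0.093, limma adjusted p = 0.52). Within an array, *Psma8* relative to *Psma7* differed between the genotypes by -0.021 on the log2 scale (two-sided exact permutation test, p = 0.90). This was 1 of 4 such pairs, for which the smallest p that 3 arrays against 3 allow is 0.1 and the values adjusted over the 4 pairs ran from 0.80 to 1.

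*Psma8* belongs to the germ cells that make up most of the testis. In bulk RNA, fewer cells of a type and less RNA per cell cannot be told apart. The 7 spermatocyte markers tested had a median difference of 0.014, with 2 at an unadjusted p below 0.05, *Sycp1* and, through a dimmer probe, *Sycp2*. Their summed signal ran from 58565 to 61389 on the *Prss55*-/- arrays and from 55968 to 60512 on the wt arrays. All 6 round spermatid markers were measured higher in *Prss55*-/- testis, 5 of them at an unadjusted limma p below 0.05 and 0 at an adjusted one (lowest adjusted p = 0.10), with a median of 0.15. Their summed signal was 137493 to 146148 on the *Prss55*-/- arrays and 122348 to 128928 on the wt arrays, which do not overlap. Of the 6 elongating spermatid markers 5 were measured lower, with a median of -0.024, and *Tnp2* at -0.20 (SE 0.053, limma adjusted p = 0.12) was the 1 at an unadjusted p below 0.05. Their summed signal was 1667470 to 1768338 on the *Prss55*-/- arrays and 1760709 to 1827426 on the wt arrays, which overlap. Beside these counts of genes, 19.1% of all tested probes passed an unadjusted p below 0.05, 9.82% higher and 9.30% lower. The spermatocyte and elongating spermatid counts are near that share. The part of cell composition in the *Psma8* value was not tested.

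The other germ cell component, *Psme4*, encodes the activator PA200. Its brightest probe read 16.43, 16.44 and 16.50 in *Prss55*-/- testis and 16.43, 16.56 and 16.43 in wt testis. The genotypes overlapped fully, with a difference of -0.012 (SE 0.056, limma adjusted p = 0.93). The 3 further *Psme4* probes gave values from -0.011 to 0.035.

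The constitutive alpha ring leaned slightly upward, with 6 of 7 genes measured higher and a median of 0.070, and 0 of 7 passed even the unadjusted threshold. *Psma3* had the highest difference of the ring. It read 13.23, 13.19 and 13.22 in *Prss55*-/- testis and 13.10, 13.17 and 13.01 in wt testis, without overlap, a difference of 0.12 (SE 0.056, limma adjusted p = 0.32). *Psma2* had the lowest, -0.040 (SE 0.056, limma adjusted p = 0.74).

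Among the constitutive beta subunits without a cutting site, *Psmb3* was highest at 0.11 (SE 0.050, limma adjusted p = 0.31) and *Psmb1* lowest at -0.048 (SE 0.054, limma adjusted p = 0.67). Both *Psmb3* probes placed every *Prss55*-/- array above every wt array. Their differences were 0.11 and 0.12.

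The clearest single value of the family was that of *Psmb5*, the constitutive subunit with chymotrypsin-like activity. Its probe, shown above, read 14.08, 14.17 and 14.15 in *Prss55*-/- testis and 13.85, 13.82 and 13.89 in wt testis. Every *Prss55*-/- array lay above every wt array, by far more than the spread within either genotype, with an SD of 0.050 and 0.038. The difference was 0.28 (SE 0.050, 95% interval 0.16 to 0.40) with an unadjusted limma p of 0.0013 and an adjusted p of 0.065, just outside the threshold. Over the 14 other settings the difference stayed between 0.26 and 0.31 and the adjusted p between 0.055 and 0.25.

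The other constitutive cutting subunits lay close to 0. *Psmb6*, the subunit with caspase-like activity, read 15.35, 15.31 and 15.31 in *Prss55*-/- testis against 15.29, 15.38 and 15.29 in wt testis, a difference of 0.005 (SE 0.048, limma adjusted p = 0.96). *Psmb7*, the subunit with trypsin-like activity, read 13.42, 13.47 and 13.53 against 13.52, 13.42 and 13.45, a difference of 0.007 (SE 0.053, limma adjusted p = 0.96). Whether *Psmb5* differed from *Psmb6* or *Psmb7* in its change was not tested.

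*Psmb5* lies on the chromosome of the targeted gene, its probe 9.46 Mb from that of *Prss55*. *Psmb11* is its nearest neighbour in the family, with probes 12.1 and 14.5 kb away. Both read higher on every *Prss55*-/- array than on any wt array, but neither was bright enough to be tested. The probe at 14.5 kb was above background on 0 arrays, so its order is that of signals at the floor. Of all tested probes, 26.3% had values that did not overlap between the genotypes. *Psme1* and *Psme2* lie nearer to *Prss55*, at 8.49 Mb, and both were measured lower, with adjusted limma p values of 0.33 and 0.67. *Psmc6*, at 18.7 Mb, gave 0.11 (SE 0.049, limma adjusted p = 0.30) by its brightest probe and -0.032 by another. Any part of the position on chromosome 14 in the *Psmb5* value was not tested.

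The immune subunits *Psmb8* and *Psmb9* had the lowest values of the family, and both depended on which *Prss55*-/- array was read. The brighter *Psmb8* probe read 8.30, 7.65 and 7.55 on *Prss55*-/- replicates 1, 2 and 3 and 7.98, 8.35 and 8.15 on the wt arrays. The second probe read 8.11, 7.57 and 7.63 against 8.12, 8.33 and 8.08. *Psmb9* read 8.11, 7.38 and 7.36 against 7.94, 8.11 and 8.00. In all 3 probes *Prss55*-/- replicate 1 lay within the wt range and replicates 2 and 3 lay below every wt array.

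Over all 6 arrays the differences were -0.33 (SE 0.21, limma adjusted p = 0.45) and -0.40 (SE 0.16, unadjusted p = 0.042, limma adjusted p = 0.24) for the *Psmb8* probes and -0.40 (SE 0.21, limma adjusted p = 0.35) for *Psmb9*. The *Prss55*-/- arrays were split, with an SD of 0.41 and 0.30 for the *Psmb8* probes and 0.42 for *Psmb9*, beside 0.19, 0.14 and 0.087 in wt testis. Without *Prss55*-/- replicate 1, which leaves 2 arrays of that genotype, the differences were -0.56 and -0.58 for *Psmb8* and -0.65 for *Psmb9*. The limma adjusted p values were then 0.090, 0.048 and 0.016. Replicate 1 read highest of its genotype in these same probes, so leaving it out widens the difference, and these p values are no separate support. Over all tested probes 854 passed an adjusted p of 0.05 without it, against 345 with all 6 arrays. Without any other single array no *Psmb8* or *Psmb9* probe passed, with limma adjusted p values from 0.24 to 0.74. Without *Prss55*-/- replicate 3 the brighter *Psmb8* probe gave -0.19 and *Psmb9* -0.27.

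*Psmb10*, the remaining immune subunit, encoded outside the MHC region, did not share the size of this split. It read 11.65, 11.54 and 11.38 in *Prss55*-/- testis and 11.54, 11.43 and 11.64 in wt testis, a difference of -0.012 (SE 0.090, limma adjusted p = 0.96). The ranges overlap.

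Set against the constitutive subunit of the same position within each array, *Psmb8* relative to *Psmb5* differed between *Prss55*-/- and wt by -0.60 on the log2 scale (two-sided exact permutation p = 0.20). *Psmb9* relative to *Psmb6* differed by -0.41 (exact permutation p = 0.40) and *Psmb10* relative to *Psmb7* by -0.019 (exact permutation p = 1). None of the pairs was separated by the test, and a ratio within an array shows only unequal change of its members.

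**Figure D2:**
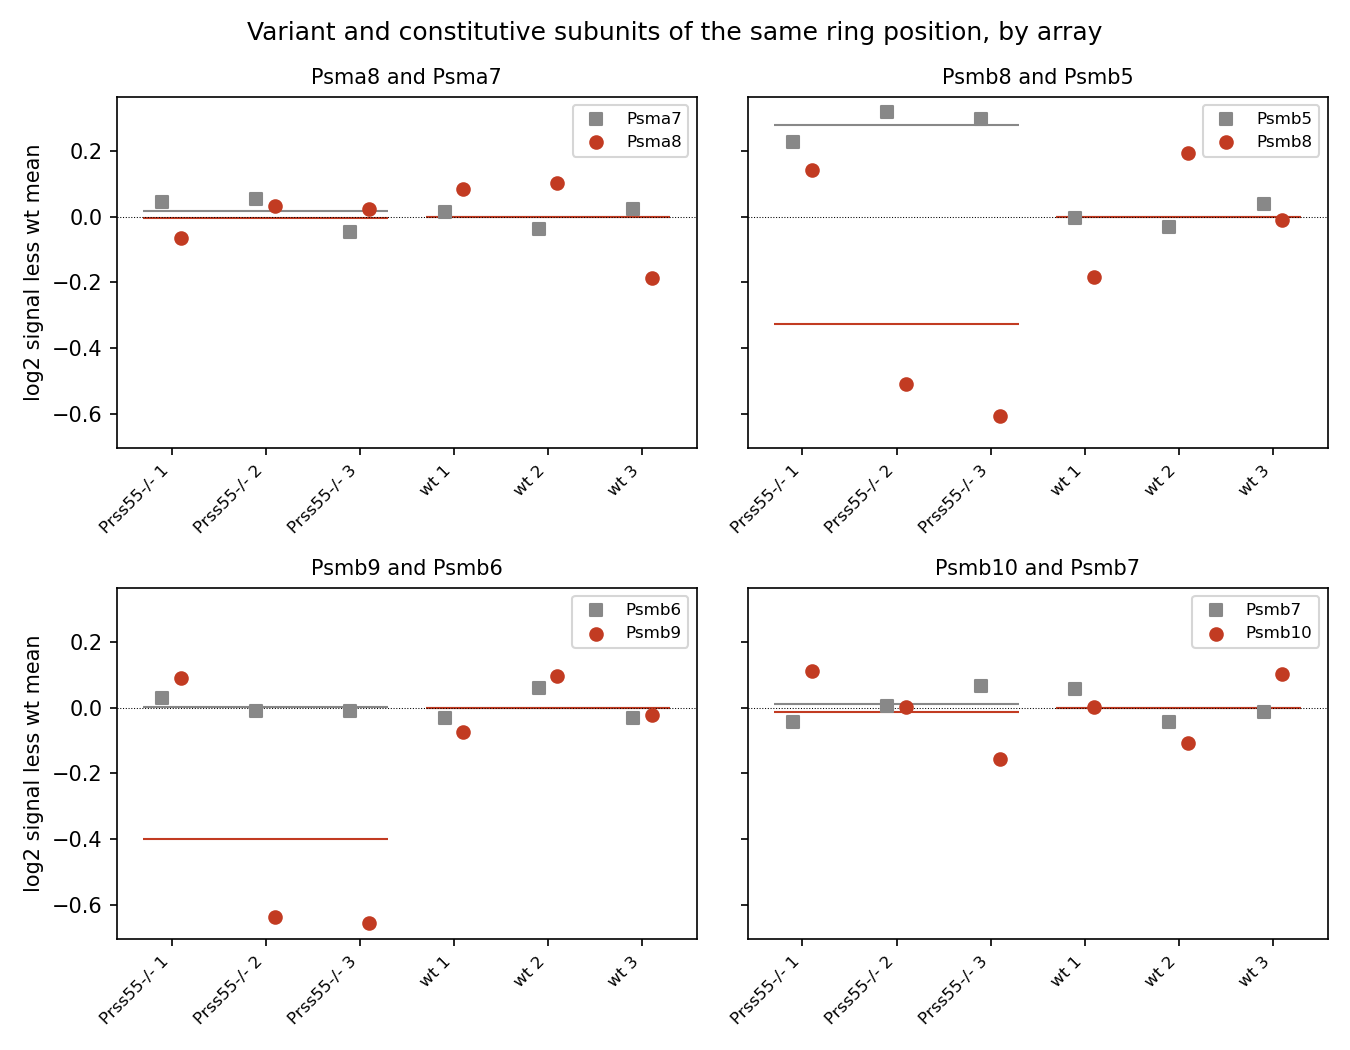
Log2 signal of each variant subunit (circles) and of the constitutive subunit of its ring position (squares) on the 6 arrays, less the mean of its wt arrays, with lines at the genotype means (n = 3). Psmb8 and Psmb9 lie near the wt mean on Prss55-/- replicate 1 and well below it on replicates 2 and 3, whereas Psmb5 lies above its wt values on all 3 Prss55-/- arrays.

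In the plot of paired subunits by array, the *Psmb8* against *Psmb5* difference joins lower *Psmb8* signals on 2 *Prss55*-/- arrays with higher *Psmb5* signals on 3.

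The interferon-inducible activator PA28 is built from the products of *Psme1* and *Psme2*. *Psme1* read 12.51, 12.21 and 12.31 in *Prss55*-/- testis and 12.56, 12.50 and 12.48 in wt testis, a difference of -0.17 (SE 0.082, limma adjusted p = 0.33), again with *Prss55*-/- replicate 1 inside the wt range and the other 2 below it. With 1 array left out it ran from -0.10, without *Prss55*-/- replicate 2, to -0.25, without *Prss55*-/- replicate 1. *Psme2* gave -0.046 (SE 0.052, limma adjusted p = 0.67) by its brightest probe and -0.12 (SE 0.050, limma adjusted p = 0.27) by a second one, which did not overlap between the genotypes. The brightest *Psme2* probe ran from -0.018 to -0.082, without the same arrays in turn. Together, all 5 immune subunits and interferon-inducible activators were measured lower by their brightest probe, with a median of -0.17. By that probe 0 of 5 passed the unadjusted threshold, and by any probe 1 did, *Psmb8*.

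The summed signal of genes that act beside the immune subunits followed a like order over the arrays, though not every gene did. Of 12 listed genes of MHC class I presentation and the interferon response, 8 were bright enough to be tested, and 6 were measured lower by their brightest probe. Their summed signal was 41761 on *Prss55*-/- replicate 1, 37919 and 38367 on replicates 2 and 3, and 40840 to 41595 on the wt arrays. *B2m*, the light chain of MHC class I, read 12.60, 12.09 and 12.18 in *Prss55*-/- testis and 12.35, 12.46 and 12.39 in wt testis, a difference of -0.11 (SE 0.14, limma adjusted p = 0.69). *Irf8*, a transcription factor of macrophages, read 10.59, 9.68 and 9.87 against 10.44, 10.47 and 10.65, a difference of -0.47 (SE 0.23, limma adjusted p = 0.33). Both were chosen for printing after their values were seen, and other genes of the list did not follow them. In *Prss55*-/- testis *Irf1* read 9.36, 9.47 and 9.42, lowest on replicate 1, and *H2-K1* read 13.80, 13.78 and 13.82. *Nlrc5* and *Gbp2* were measured higher, at 0.17 and 0.097.

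The summed signals of the macrophage and Leydig cell markers were also highest on replicate 1 among the *Prss55*-/- arrays. By its brightest probe every Leydig cell marker tested was highest there too. Of the macrophage markers *Cd163* alone was not, with 5.46 on replicate 1 beside 5.84 and 5.95. All 8 macrophage markers tested were measured lower in *Prss55*-/- testis, 4 of them at an unadjusted limma p below 0.05 and 0 at an adjusted one (lowest adjusted p = 0.15), with a median of -0.18. Their summed signal was 16601, 15813 and 12807 on the *Prss55*-/- arrays and 18205, 13806 and 17294 on the wt arrays, which overlap. The sum adds linear signals, so it mostly reads *Lyz2*, by far the brightest marker. *Lyz2* read 13.70, 13.64 and 13.24 in *Prss55*-/- testis and 13.85, 13.34 and 13.76 in wt testis. Of the defining markers, *Emr1* gave -0.042 and *Csf1r* -0.12, and all 8 passed the filter on signal. All 5 Leydig cell markers tested were measured lower by their brightest probe, 3 of them with a probe at an unadjusted p below 0.05 (lowest limma adjusted p = 0.072), with a median of -0.62. Their summed signal was 51338 on *Prss55*-/- replicate 1, 31769 and 35362 on replicates 2 and 3, and 51015 to 58522 on the wt arrays. Over all tested probes, counted per probe, 19.1% passed an unadjusted p below 0.05 and 9.30% did so on the lower side.

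Of 4 lymphocyte markers tested, 3 were measured higher and 1 lower, and their summed signal was 424 to 476 on the *Prss55*-/- arrays and 446 to 466 on the wt arrays. The part of macrophage, Leydig or lymphoid cell content in the *Psmb8* and *Psmb9* values was not tested.

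**Figure D3:**
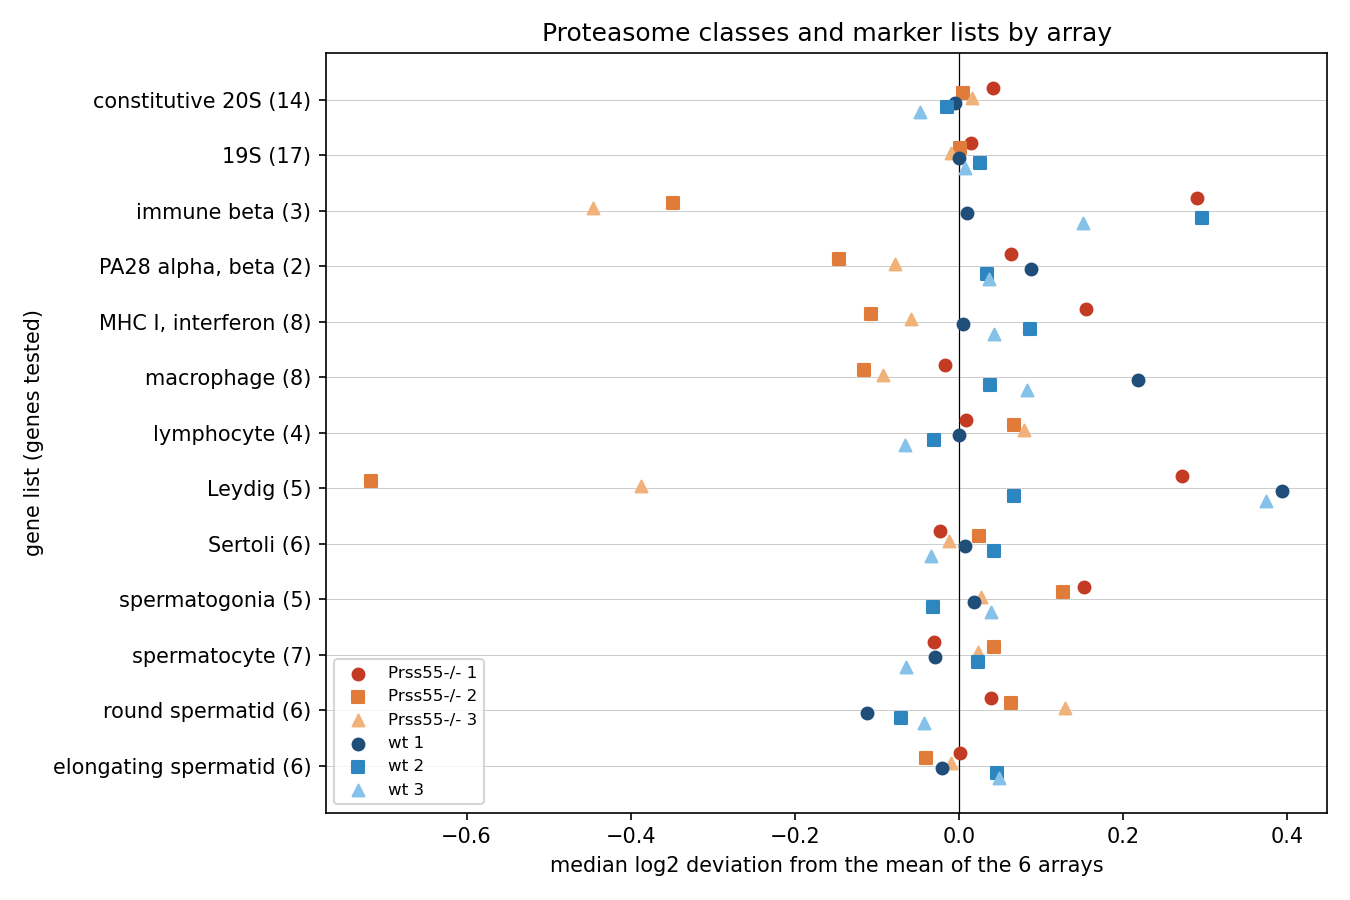
Median log2 deviation of each proteasome class and marker list from the mean of the 6 arrays (x axis), 1 point per array, with the number of genes tested in brackets. On the immune, PA28, MHC and Leydig rows Prss55-/- replicate 1 (dark red) lies to the right of replicates 2 and 3, and the constitutive 20S and 19S rows stay within 0.05 of 0 on every array.

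The plot of classes by array sets the immune row, from -0.45 to 0.30, beside the constitutive 20S row, from -0.047 to 0.042. The Leydig row ran from -0.72 to 0.39.

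The promoters of the genes were searched for letters bound by the regulators of each class. RefSeq promoters of GRCm38.p6, from 250 bases before to 50 after the start, were at hand for 41 of the 49 genes (44 promoters). On either strand, TTCNNNGAA, the gamma-interferon activation site, was in 8.30% of all 32851 promoters and in 3 of the 44, those of *Psmb8*, *Psmd2* and *Psmg1*. The antioxidant response element core TGACNNNGC, which NFE2L1 and NFE2L2 bind at proteasome genes, was in 12.4% of all promoters and in 6 of the 44, *Psmb5* and *Psmb6* among them. The interferon-stimulated response element, GAAA on both sides of any 2 bases, was in 3.44% of all and in 5 of the 44. No match of one motif overlapped a match of another in these promoters. The stretches below are those of the 2 genes farthest from 0 that held a match, with the matched letters in capitals, from the start of *Psmb5* on the minus strand (chr14:54618009-54618067) and of *Psmb8* on the plus strand (chr17:34198073-34198131), both GRCm38.p6 and not to be set beside the mm9 positions of the probes:
Psmb5: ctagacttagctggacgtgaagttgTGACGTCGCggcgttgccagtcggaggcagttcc
Psmb8: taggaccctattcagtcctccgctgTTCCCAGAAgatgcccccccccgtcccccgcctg
These matches are a description of letters, 47 and 97 bases before the start.

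The regulators themselves were also on the array. All 4 listed regulators of proteasome genes were measured lower in *Prss55*-/- testis. *Nfe2l2* was at -0.18 (SE 0.071, limma adjusted p = 0.25, below 0.05 unadjusted) and *Nfe2l1* at -0.086 (SE 0.062, limma adjusted p = 0.49). *Foxo3* at -0.047 (SE 0.13) and *Nfya* at -0.010 (SE 0.19) lay well within their error. Any link between these regulators and the proteasome genes was not tested.

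In the 19S particle, which feeds substrates into the core, 7 of 17 subunits were measured higher and 10 lower, with a median of -0.017 that turned to 0.005 under 75th percentile scaling. Of the 6 ATPases, *Psmc6* was highest at 0.11 and *Psmc1* lowest. *Psmc1* read 13.87, 13.85 and 13.88 in *Prss55*-/- testis and 13.99, 13.90 and 13.95 in wt testis, without overlap, a difference of -0.081 (SE 0.046, limma adjusted p = 0.39).

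Of the 11 other 19S subunits, *Psmd8* was highest at 0.11 (SE 0.12, limma adjusted p = 0.65), with wt replicate 2 at 15.21 and the other 5 arrays between 15.59 and 15.64. *Psmd11*, a scaffold subunit, was lowest at -0.22. Its brightest probe, listed at chr11:80285272-80285331, read 14.66, 14.53 and 14.07 in *Prss55*-/- testis and 14.76, 14.75 and 14.42 in wt testis. These overlap, and the difference of -0.22 (SE 0.18, limma adjusted p = 0.53) went to -0.045 without *Prss55*-/- replicate 3 and to -0.34 without *Prss55*-/- replicate 1.

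A second *Psmd11* probe, on the cDNA clone AK007029, read 9.11, 9.13 and 9.14 in *Prss55*-/- testis and 9.26, 9.38 and 9.41 in wt testis. The groups did not overlap, with a difference of -0.22 (SE 0.055, limma adjusted p = 0.11, below 0.05 unadjusted). This probe is listed at chr11:80241602-80241661, 43.7 kb from the first and with its coordinates in the opposite order, so that it need not read the same transcript.

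*Psmd10*, the assembly chaperone gankyrin, on chromosome X, was the other gene above the unadjusted threshold. It read 10.50, 10.31 and 10.40 in *Prss55*-/- testis and 10.05, 10.25 and 10.27 in wt testis. Every *Prss55*-/- array was above every wt array, with a difference of 0.21 (SE 0.083, limma adjusted p = 0.24, below 0.05 unadjusted). The other 19S chaperones, *Psmd9* and *Psmd5*, gave 0.094 and -0.061. The 4 core assembly chaperones ran from -0.001 for *Psmg3* to 0.043 for *Psmg1*.

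*Psme3*, the nuclear activator PA28 gamma, gave 0.015 (SE 0.077, limma adjusted p = 0.93). *Psmf1*, the proteasome inhibitor PI31, read 14.27, 14.15 and 14.16 in *Prss55*-/- testis and 14.24, 14.31 and 14.34 in wt testis, a difference of -0.11 (SE 0.056, limma adjusted p = 0.36). Its other probes gave -0.010 and -0.089. *Psmc3ip*, the name-only match, gave 0.079 (SE 0.046, limma adjusted p = 0.40), and of its partners in meiotic recombination *Mnd1* gave 0.038 and *Dmc1* -0.28 (SE 0.051, limma adjusted p = 0.065).

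Of 21 genes with several tested probes, 8 had probes of opposite sign, none of them with a probe at an unadjusted p below 0.05, and the widest range between the probes of a gene was 0.22.

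The proteasome acts together with further genes of the ubiquitin system. Among 9 proteasome genes without a Psm name, 2 passed an unadjusted limma p of 0.05, *Usp14* and *AI314180*, each through a dimmer probe, and 0 an adjusted one. By the brightest probe none of the 9 passed, with values from -0.096 to 0.054. Among 14 shuttle and segregase genes, *Ubqln4*, a shuttle that carries ubiquitinated proteins, was the 1 at an unadjusted p below 0.05, at 0.26 (SE 0.072, adjusted p = 0.14). Among 6 ubiquitin precursor and activating enzyme genes it was *Uba1*, the main activating enzyme, at -0.20 (SE 0.052, adjusted p = 0.12). By any tested probe the shares of genes were 22.2%, 7.14% and 16.7%, beside 19.1% of all tested probes. The 2 kinds of share are not alike, since a gene with several probes has several chances to pass.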

How the data were processed

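Testis RNA of 3 wt and 3 *Prss55*-/- mice was measured on 6 single-dye Agilent arrays. The authors deposited for each array the scanner output of Agilent Feature Extraction 10.7, whose processed signal is a linear intensity corrected for background within the array, and a matrix of log2 values quantile-normalized over the arrays. Here log2 processed signals were quantile-normalized, spots of 1 probe averaged (43379 spots, 41174 probes) and spots called outliers set aside (2 missing tested values). Tested probes were those that, in 1 genotype or both, cleared the background on all 3 arrays. limma 3.58.1 in R 4.3.3 gave two-sided p values, Benjamini-Hochberg adjusted over all 28617 tested probes. The fit was tested on simulated data. Pairs were compared by exact permutation over 20 arrangements.

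The brightest tested probe stood for a gene, and a gene counted as called if any tested probe passed. Genes named were the catalytic subunits, *Psma7*, *Psma8*, the activators and inhibitor, *Psmc3ip*, members with an unadjusted p below 0.05, the extremes of each class and *Prss55*. The members and lists were chosen with earlier results of these data known. Alternatives were other scaling (75th percentile), the deposited matrix, normexp (offset 50), filters, the methods' t-test, blocks and left-out arrays. Python 3.11.15, numpy 2.4.6, pandas 2.3.3 and matplotlib 3.10.9 were used.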

Additional observations from a re-analysis of the deposited data

Results flagged for a closer look

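*Psmb11*, the thymus subunit, was not tested because it was not well above background on all arrays of either genotype. One of its probes nevertheless cleared the background on 2 *Prss55*-/- arrays and 0 wt arrays, which is why it is listed here. It read 4.74, 5.54 and 5.21 on the log2 scale in *Prss55*-/- testis and 2.96, 3.60 and 4.63 in wt testis. With each wt signal raised, where lower, to the dimmest that cleared the background there, the *Prss55*-/- mean was 1.08-fold higher. The *Prss55*-/- signal that did not clear the background was kept as read, so this value is no lower bound. Since the probe is listed for its pattern of detection, the direction is no separate support. The second *Psmb11* probe was above background on 0 arrays.

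A *Psma3* probe on the transcript ENSMUST00000160027 was well above background on 1 *Prss55*-/- array, replicate 2, at 6.84, and on 0 wt arrays. The other 5 arrays read between 2.81 and 3.67. The brightest *Psma3* probe on the reference transcript did not stand apart on that array, at 13.19 beside 13.23 and 13.22.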

How the results depend on the processing

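Of 373 values recomputed under the alternatives, 331 kept their direction and side of the threshold or moved within the limits set. In 30 the sign turned, each to a value of 0.084 or less in size. With 75th percentile scaling *Psma8* went to 0.020, *Psme4* to 0.034 and the 19S median to 0.005. With normexp *Psma8* went to 0.072, *Psma7* to -0.012, *Psma8* relative to *Psma7* to 0.084, the 20S median to 0.057 and the 19S median to -0.038. With the mean of the tested probes *Psma7* went to -0.051, *Psme4* to 0.005 and *Psma8* relative to *Psma7* to 0.047. With 1 array left out in turn the differences ran from -0.10 to 0.048 for *Psma8*, -0.002 to 0.048 for *Psma7*, -0.011 to 0.035 for *Psmb6*, -0.019 to 0.034 for *Psmb7*, -0.075 to 0.059 for *Psmb10*, -0.034 to 0.074 for *Psme3* and -0.035 to 0.031 for *Psme4*. They ran from -0.13 to 0.049 for *Psma8* relative to *Psma7* and -0.11 to 0.078 for *Psmb10* relative to *Psmb7*, and the medians from 0.018 to 0.063 for the 20S and -0.022 to -0.004 for the 19S. The cause was not tested.

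The count at an adjusted p of 0.05 was 0 in every setting except without *Prss55*-/- replicate 1, where *Psmb8* and *Psmb9* made it 2, so it ran from 0 to 2 with 1 array left out. Without that array the calls over all tested probes also rose, from 345 to 854. The count at an unadjusted p, 4 in the report, ran from 2 to 6 with 1 array left out. With the methods' t-test it was 11 genes by any probe, while 17.2% of all probes passed, a share of probes and not of genes. Without a filter 1 gene, *Psmb11*, also reached 2-fold. Same-numbered arrays deviated together with correlations of -0.054, -0.022 and -0.11, so the numbers were not taken to pair the samples. The paper speaks of pairs of wt and *Prss55*-/- mice without saying how they were paired, and so few arrays cannot settle it. With the replicate block the unadjusted count was 2, *Psmb5* and *Psmd11*. Slide as a random block left the count at 4, which cannot separate slide from genotype, since no slide held both genotypes. Signal over background limits *Psmb11*, and the array number limits all values.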
